A study of Mus musculus with 12 samples.

Results

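The 9 genes Muc2, Tff3, Fcgbp, Clca1, Zg16, Agr2, Spdef, Spink4 and Atoh1 mark goblet cells or encode their mucus, and were taken by name from the deposited table. All 9 of 9 were listed among its 17112 genes, and all passed the filter on low values, which kept 14001 genes. RNA sequencing measured the small intestine of 12 C57BL/6 mice, 1 library per mouse. The mice were wild type (WT), Zip4 heterozygous (HET) or Zip4 knockout (KO), and their diet held zinc bound to an amino or a hydroxy complex. Each of the 6 combinations of genotype and complex had 2 libraries. Zip4, whose gene symbol is Slc39a4, encodes the zinc importer of the enterocyte's luminal membrane. WT mice were 210 to 237 days old and KO mice 198 to 240 days. HET mice were 363 and 141 days old with amino and 338 and 143 days with hydroxy. Sample labels gave 15 ppm dietary zinc for WT and HET and 40 ppm for KO, whereas the series text gave 15 ppm for all, so genotype and zinc level cannot be told apart for KO by the sample labels. The labels do not name the cells in which Zip4 was deleted.

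Goblet cells are secretory cells of the intestinal epithelium that release a gel of mucus over its surface. The transcription factor Atoh1 commits progenitors to the secretory lineages, which Notch signalling restrains, and Spdef promotes goblet cell maturation. Muc2 is the gel-forming mucin, Agr2 helps to fold it in the endoplasmic reticulum, and Fcgbp, Clca1, Zg16 and Tff3 are secreted with it.

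The promoters of 4 of these genes are shown because Muc2 and Fcgbp, and likewise Spdef and Atoh1, varied together over the libraries. Each is the 250 bases before the start site in the RefSeq table of build GRCm38.p6, printed 5′ to 3′ on the gene's strand. Capitals mark the E-box CAGCTG, of the kind Atoh1 binds, and TATAAA, 1 spelling of a TATA box. Other spellings, such as the tatataa in the Fcgbp window, were not searched for or marked. A marked TATAAA is therefore not shown to be the TATA box of its gene. The Muc2 window is chr7:141690090-141690339 (plus strand), the Fcgbp window chr7:28070986-28071235 (plus), the Spdef window chr17:27728952-27729201 (minus) and the Atoh1 window chr6:64728875-64729124 (plus).
Muc2: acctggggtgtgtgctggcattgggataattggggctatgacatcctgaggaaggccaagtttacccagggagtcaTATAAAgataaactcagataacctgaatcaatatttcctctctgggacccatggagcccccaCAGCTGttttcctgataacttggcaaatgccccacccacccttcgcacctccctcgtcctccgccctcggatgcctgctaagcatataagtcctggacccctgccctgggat
Fcgbp: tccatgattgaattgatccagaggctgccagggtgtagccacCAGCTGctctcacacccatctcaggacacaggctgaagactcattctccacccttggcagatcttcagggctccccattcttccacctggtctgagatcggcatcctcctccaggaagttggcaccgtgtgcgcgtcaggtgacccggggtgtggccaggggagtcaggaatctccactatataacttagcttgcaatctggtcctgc
Spdef: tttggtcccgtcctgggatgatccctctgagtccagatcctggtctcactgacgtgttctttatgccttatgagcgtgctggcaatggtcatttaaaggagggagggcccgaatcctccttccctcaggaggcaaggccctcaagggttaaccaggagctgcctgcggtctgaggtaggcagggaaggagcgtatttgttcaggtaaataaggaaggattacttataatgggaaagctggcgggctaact
Atoh1: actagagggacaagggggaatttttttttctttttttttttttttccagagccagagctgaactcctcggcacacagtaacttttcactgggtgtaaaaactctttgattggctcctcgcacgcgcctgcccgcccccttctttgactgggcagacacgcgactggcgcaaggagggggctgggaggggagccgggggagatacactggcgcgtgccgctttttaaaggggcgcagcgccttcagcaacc
The search covered both strands of the 5 of 9 members that the promoter table held, those 4 and Agr2. CAGCTG began at position -112 in Muc2 and -208 in Fcgbp, counted from -1 at the base before the start site, and 13.0% of 32851 promoters held it. TATAAA began at position -174 in Muc2, and 12.4% of all promoters held it. The forkhead core GTAAACA matched in 0 of the 5 members and in 3.2% of all promoters. The ETS core GGAT, of the kind Spdef favours, matched at 4 positions in Muc2, 2 in Fcgbp, 2 in Agr2, 5 in Spdef and 0 in Atoh1, and 74.1% of all promoters held it. The letters of these motifs do not contain one another, and a match describes letters only.

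The libraries held 26.0 to 38.8 M reads by the steps of their low values, and the least abundant member of a library rested on 129 to 365 reads. Slc39a4 stood at 188 to 256 CPM (counts per 1 M reads of the library) in WT, 117 to 267 in HET and 42.0 to 91.6 in KO, so each KO library lay below every other. Its change was -1.71 on the log2 scale in KO against WT (SE 0.28, adjusted p = 0.0736 by limma) and -1.40 in KO against HET (SE 0.28, adjusted p = 0.0273 by limma). Summed smooth muscle markers, 7 of 7 listed, ranged from 2263 to 6227 CPM in WT, 1060 to 6458 in HET and 951 to 3140 in KO. Epithelial markers, 8 of 8 listed, summed to 5619 to 8843 CPM in WT, 4575 to 9250 in HET and 6116 to 8102 in KO. The ileal gene Fabp6 was at 259 CPM in WT hydroxy 1 and 99.3 in HET amino 2, and below 1 CPM in the other 10. KO amino 1 is labelled male but held 244 CPM of Xist, and KO amino 2 is labelled female but held 0.155 CPM of Xist and 32.2 of Ddx3y. Of 7 gastric and Brunner's gland mucus markers only Gkn3 was listed, at 0.153 to 6.92 CPM.

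Goblet transcripts were abundant in every library, and together made up 0.647% to 1.46% of the CPM of listed genes. Per kilobase of merged exon, Zg16 was highest, with a mean level of 1486 CPM per kb ± 462 (SD, n = 12). Tff3 followed at 1014 ± 363 CPM per kb and Fcgbp at 361 ± 148. Zg16 lay above Tff3 in 12 of 12 libraries, and Tff3 above Fcgbp in 11. Spink4, a secreted protein of the Kazal protease inhibitor family, stood at 244 ± 100 CPM per kb, and was below Fcgbp in 10 of 12 libraries. Clca1 at 111 ± 53.8, Agr2 at 101 ± 39.4 and Muc2 at 98.4 ± 43.7 CPM per kb did not differ beyond their spread. The Muc2 level is uncertain, because its 8 coding models in GENCODE M21 are partial, the longest 2926 bases and all of them merged 7127. The transcription factors were lowest, with Spdef at 4.76 ± 1.33 and Atoh1 at 3.85 ± 0.95 CPM per kb, and Spdef was the higher in 11 of 12 libraries.

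**Figure D1:**
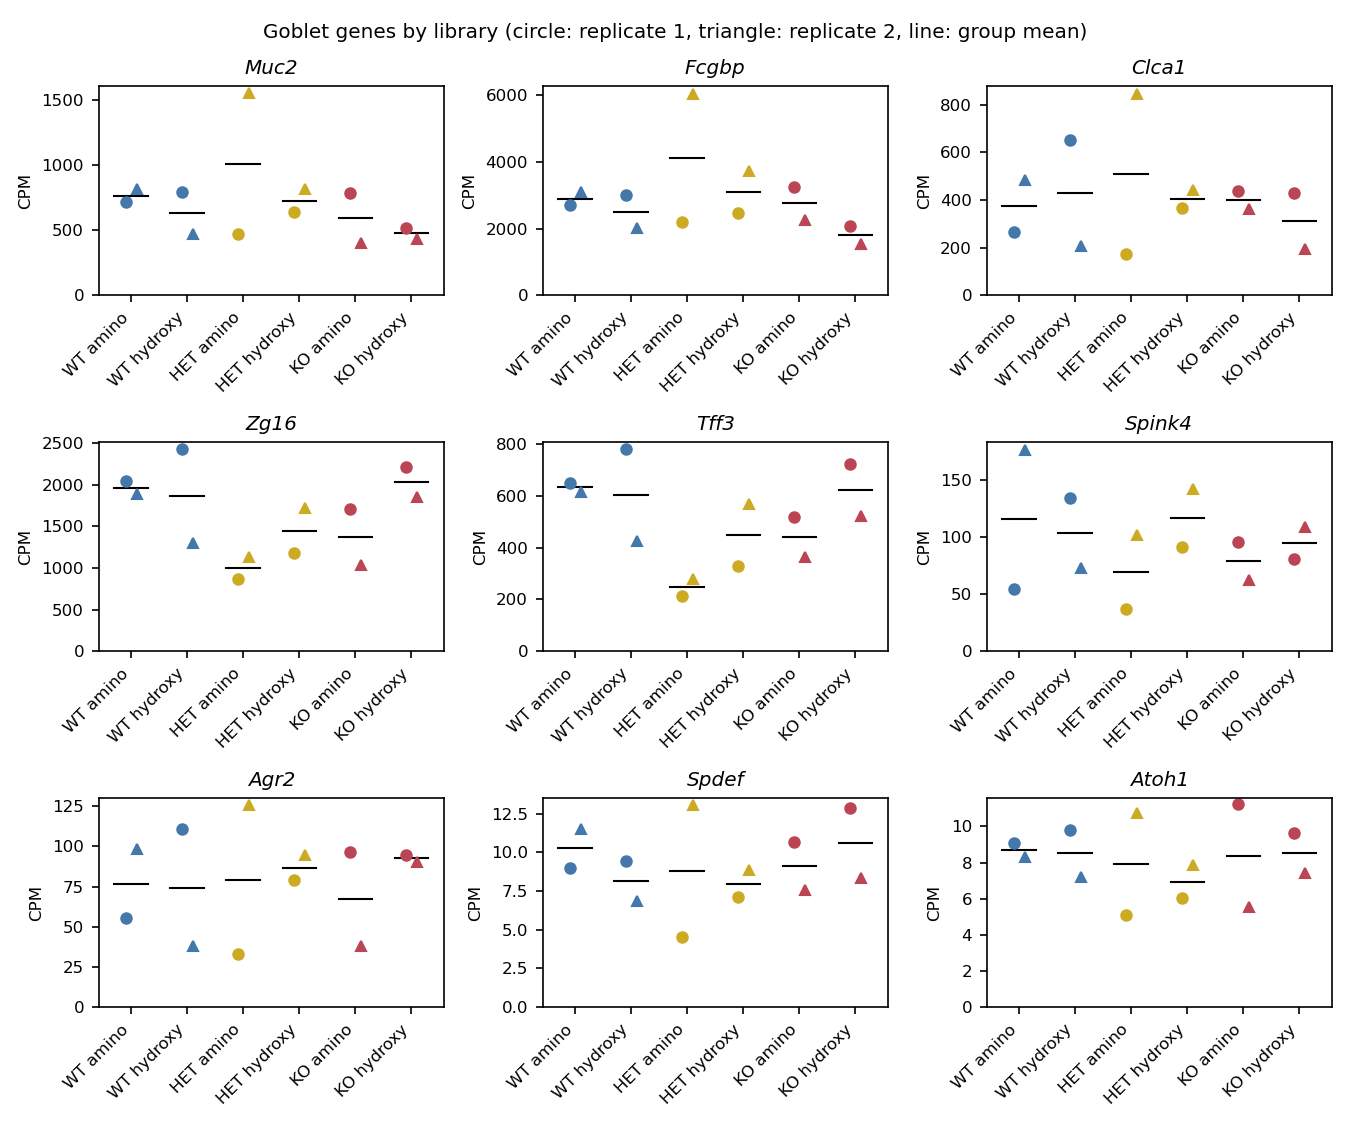
CPM of each of the 9 goblet genes in 12 libraries, with circles for replicate 1, triangles for replicate 2 and lines for group means of 2 libraries. The HET amino libraries lie far apart for Muc2, at 472 and 1551 CPM, while both lie below every WT library for Tff3, at 214 and 280 CPM.

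Muc2 lies at chr7:141690340-141754694 on the plus strand in mm10, and encodes the mucin that forms the gel. In WT it was at 719 and 813 CPM with the amino complex and 796 and 469 with the hydroxy complex. In HET it was at 472 and 1551 with amino and 638 and 815 with hydroxy, and in KO at 783 and 404 with amino and 519 and 435 with hydroxy. HET amino 2 was the highest library and KO amino 2 the lowest, and all 3 genotypes overlapped. Genotype means were 699 ± 159 CPM in WT, 869 ± 476 in HET and 535 ± 172 in KO (SD, n = 4 each).

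Fcgbp, a large mucus protein with von Willebrand D domains, lies at chr7:28071236-28120864 on the plus strand. In WT it was at 2713 and 3089 CPM with amino and 2993 and 2008 with hydroxy. In HET it was at 2207 and 6055 with amino and 2471 and 3742 with hydroxy, and in KO at 3235 and 2272 with amino and 2064 and 1540 with hydroxy. HET amino 2 was again highest, both KO hydroxy libraries lay below both KO amino libraries, and the genotypes overlapped. Muc2 divided by Fcgbp stayed within 0.178 to 0.282 over the 12 libraries, a range of 1.59-fold.

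Clca1, a secreted protease that processes the Muc2 gel, lies at chr3:145004537-145032776 on the minus strand. It had the widest range of the 9 genes, 4.92-fold. It was at 263 and 485 CPM in WT amino, 654 and 207 in WT hydroxy, 172 and 845 in HET amino, 367 and 441 in HET hydroxy, 437 and 361 in KO amino and 431 and 196 in KO hydroxy. In 4 of 6 groups the 2 libraries lay farther apart than any pair of group means, and HET amino held both the lowest and the highest value. Clca1 has related neighbours of the Clca family, and the treatment of reads shared with them was not given in the sources used here.

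Zg16, a lectin-like protein that binds bacterial wall glycans in mucus, lies at chr7:127050156-127052675 on the minus strand. It was at 2038 and 1883 CPM in WT amino and 2434 and 1301 in WT hydroxy. In HET it was at 869 and 1127 with amino and 1179 and 1719 with hydroxy, and in KO at 1707 and 1038 with amino and 2212 and 1857 with hydroxy. HET amino 1 was lowest, 3 of 4 HET libraries lay below every WT library, and the groups overlapped through WT hydroxy 2 and HET hydroxy 2.

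Tff3, a small trefoil peptide secreted with the mucus, lies at chr17:31125306-31129611 on the minus strand. It was at 652 and 614 CPM in WT amino and 780 and 424 in WT hydroxy. In HET it was at 214 and 280 with amino and 330 and 571 with hydroxy, and in KO at 520 and 366 with amino and 723 and 524 with hydroxy. The same 3 HET libraries lay below every WT library, and HET hydroxy 2 lay inside the WT range. Tff3 divided by Zg16 stayed within 0.246 to 0.352, a range of 1.43-fold.

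Spink4 lies at chr4:40920056-40931395 on the plus strand. It was at 54.7 and 177 CPM in WT amino, 135 and 73.3 in WT hydroxy, 36.9 and 102 in HET amino, 91.7 and 143 in HET hydroxy, 95.6 and 62.2 in KO amino and 81.2 and 109 in KO hydroxy. The extremes were both amino libraries, WT amino 2 and HET amino 1, and every pair of genotypes overlapped.

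Agr2, the disulfide isomerase needed for Muc2 folding, lies at chr12:35992925-36004081 on the plus strand. It was at 55.2 and 98.2 CPM in WT amino, 111 and 37.8 in WT hydroxy, 32.8 and 125 in HET amino, 79.1 and 94.5 in HET hydroxy, 96.5 and 38.2 in KO amino and 94.4 and 90.5 in KO hydroxy. WT hydroxy 2, HET amino 1 and KO amino 2 were low, 1 library of each genotype, and the remaining 9 lay from 55.2 to 125 CPM.

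Both fate regulators were at low levels. Spdef, an ETS-family factor at chr17:27714447-27728951 on the minus strand, was at 9.01 and 11.5 CPM in WT amino, 9.47 and 6.86 in WT hydroxy, 4.52 and 13.1 in HET amino, 7.11 and 8.84 in HET hydroxy, 10.7 and 7.56 in KO amino and 12.9 and 8.35 in KO hydroxy. Atoh1, a basic helix-loop-helix factor at chr6:64729146-64731235 on the plus strand, was at 9.11 and 8.33 CPM in WT amino, 9.79 and 7.22 in WT hydroxy, 5.08 and 10.7 in HET amino, 6.03 and 7.84 in HET hydroxy, 11.3 and 5.51 in KO amino and 9.66 and 7.42 in KO hydroxy. HET amino 1 was lowest for both, and all genotypes overlapped. Atoh1 had the narrowest range of the 9 genes, 2.21-fold.

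Between genotypes, no goblet gene passed the test. In KO against WT, 0 of 9 members passed limma at an adjusted p of 0.05, beside 0.0286% of all genes tested, and 0 passed at an unadjusted p of 0.05, beside 9.79%. The estimates ran from -0.40 for Muc2 (SE 0.38, adjusted p = 0.695 by limma, 95% interval -1.25 to 0.44) to 0.12 for Agr2 (SE 0.48, adjusted p = 0.931 by limma). Their median was -0.18, with 2 of 9 above 0, beside a median of 0.02 over all genes. Without WT hydroxy 1 it was 0.04, with 6 of 9 above 0. Without WT hydroxy 2 it was -0.42 and without KO amino 1 -0.35, each with 0 of 9 above 0. The intervals leave room for changes of this size and more, so they do not show that the genotypes are alike. No member had non-overlapping libraries in this comparison, beside 5.49% of all genes.

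HET against WT again gave 0 of 9 members, beside 0% of all genes. Tff3 had the largest difference, -0.89 (SE 0.26, unadjusted p = 0.00756, adjusted p = 0.214 by limma, 95% interval -1.48 to -0.30), and was lower in 3 of 4 HET libraries than in any WT library. It was the 1 member with an unadjusted p below 0.05, beside 15.3% of all genes. Zg16 was next, at -0.65 (SE 0.30, adjusted p = 0.343 by limma). Muc2 at 0.20 (SE 0.38) and Fcgbp at 0.32 (SE 0.40) had estimates of the other sign, with adjusted p = 0.866 and 0.766 by limma. Those signs rested on HET amino 2, for Muc2 was at -0.23 and Fcgbp at -0.04 without it, and at 0.63 and 0.69 without HET amino 1. The members' median was -0.18, with 4 of 9 above 0, and that of all genes 0.08. The median was 0.15 with 7 of 9 above 0 without HET amino 1, and -0.47 with 0 of 9 without HET amino 2. It was 0.18 with 5 of 9 without WT amino 2, and 0.28 with 7 of 9 without the HET mice over 300 days old, where Muc2 was at 0.72 and Fcgbp at 0.84. No member's libraries were apart, beside 9.66% of all genes.

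KO against HET called 957 genes, 6.84% of those tested, and 0 of 9 members. Tff3 at 0.67 (SE 0.26, unadjusted p = 0.0306, adjusted p = 0.138 by limma) was the 1 member with an unadjusted p below 0.05, beside 27.5% of all genes. Zg16 was at 0.47 (SE 0.30, adjusted p = 0.337 by limma), while Muc2 and Fcgbp were both at -0.60 (SE 0.38 and 0.40, adjusted p = 0.323 and 0.352 by limma). The members' median was 0.03 with 6 of 9 above 0, and that of all genes -0.07. Without HET amino 1 it was -0.34 with 2 of 9 above 0, and without HET amino 2 it was 0.41 with 7 of 9. Muc2 and Fcgbp were at -1.03 and -0.96 without HET amino 1, and at -0.17 and -0.24 without HET amino 2. Leaving out HET hydroxy 1 or KO amino 1 also turned the median, to -0.06 and -0.13. Again no member's libraries were apart, beside 13.3% of all genes. A voom fit on reads recovered from the CPM steps, added after seeing the data, gave 0 of 9 members in all 9 comparisons. The 3 genotype comparisons share libraries, so the mirrored Tff3 values in HET against WT and KO against HET are not separate evidence.

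**Figure D2:**
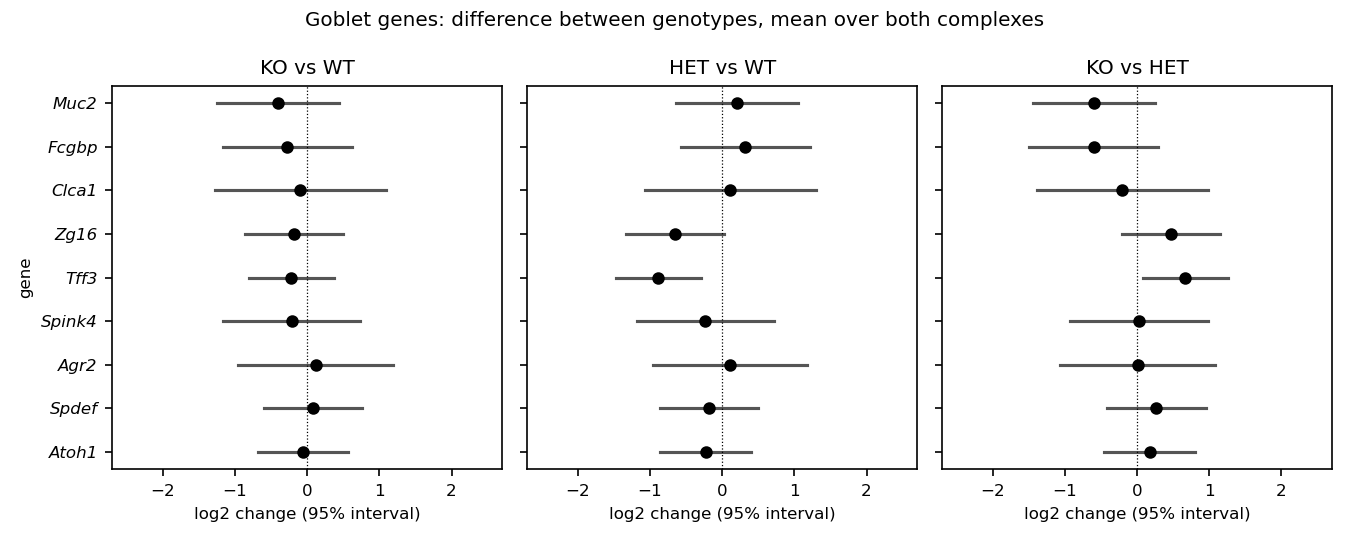
Difference between genotypes in log2(CPM + 1) for each goblet gene, as the mean over both complexes, with points for limma estimates and bars for 95% intervals. Only the Tff3 intervals in HET against WT (-1.48 to -0.30) and in KO against HET (0.08 to 1.26) exclude 0, before adjustment over all genes.

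Smooth muscle and epithelial sums differed among the libraries, and in part along with the goblet genes. HET amino 1, the lowest library for 7 of 9 members, had the highest smooth muscle sum, 6458 CPM, and the lowest epithelial sum, 4575. HET amino 2, the highest for Muc2, Fcgbp, Clca1, Agr2 and Spdef, had the highest epithelial sum, 9250, and a smooth muscle sum of 1183 CPM. It was nevertheless second lowest for Tff3. HET amino 2 also had 1542 genes at the lowest value, 0.0001 CPM, at a depth of 32.6 M reads. The other libraries had 480 to 863 such genes, and the part of this in the goblet values was not tested. WT hydroxy 1 was the highest for Tff3 and Zg16. HET amino 2 and WT hydroxy 1 were also the libraries with at least 10 CPM of the ileal gene Fabp6. Without both, the members' median was 0.04 in KO against WT, with 6 of 9 above 0. It was 0.41 with 7 of 9 in KO against HET, and -0.37 with 2 of 9 in HET against WT. The part of gut region in the goblet values was not tested. KO amino 2, the lowest for Muc2, had a smooth muscle sum of 3140 CPM, close to the 3247 and 2833 of the WT amino libraries. Its epithelial sum was 6116 CPM, and for 5 of 9 members it was among the 3 lowest libraries. WT hydroxy 2 was so for 5 of 9 as well, with a smooth muscle sum of 6227 CPM and an epithelial sum of 5619. HET hydroxy 1 and KO hydroxy 2 were each so for 3 of 9. Their smooth muscle sums were 5677 and 3100 CPM, and their epithelial sums 6429 and 7049. The mice of HET amino 1 and HET hydroxy 1 were 363 and 338 days old. Those of HET amino 2 and HET hydroxy 2 were 141 and 143 days old, with smooth muscle sums of 1183 and 1060 CPM. Within HET, age and tissue make-up therefore cannot be told apart. In whole tissue, fewer goblet cells and less RNA per goblet cell cannot be told apart. With the smooth muscle score as a covariate, 2 of 9 members passed in HET against WT, beside 9.04% of all genes. These were Tff3 at -1.03 (adjusted p = 0.0129 by limma) and Zg16 at -0.78 (adjusted p = 0.042 by limma). In KO against HET 3 of 9 passed, beside 27% of all genes, with Muc2 at -0.74 (adjusted p = 0.0329), Fcgbp at -0.73 (adjusted p = 0.0272) and Tff3 at 0.57 (adjusted p = 0.0221), all by limma. The score was measured in these same libraries.

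The complex in the diet gave no call either. Averaged over genotypes, hydroxy against amino gave 0 of 9 members, beside 0% of all genes, and 0 at an unadjusted p of 0.05, beside 8.96%. Spink4 at 0.40 (SE 0.35), Tff3 at 0.39 (SE 0.21) and Fcgbp at -0.37 (SE 0.33) were the estimates farthest from 0, with adjusted p = 0.78, 0.596 and 0.783 by limma. The members' median was -0.02 with 4 of 9 above 0, beside 0.07 for all genes. In WT, 0 of 9 members passed beside 0% of all genes, and 0 at an unadjusted p of 0.05 beside 1.03%, with no member's libraries apart beside 25.1%. The median was -0.14 in WT, 0.08 in HET and 0.19 in KO, beside 0.10, 0.01 and 0.07 for all genes. With 1 library left out, the members' median ran from -0.58 to 0.30 in WT and from -0.57 to 0.71 in HET. In KO it ran from -0.09 to 0.54. In HET, 0 of 9 passed beside 0%, and 0 at an unadjusted p of 0.05 beside 2.68%. Tff3, at 0.82 (SE 0.37), and Zg16, at 0.52 (SE 0.43), had both hydroxy libraries above both amino ones, 2 of 9 members beside 21.5% of all genes. In KO, 0 of 9 passed beside 0%, and 0 at an unadjusted p of 0.05 beside 13.7%. Tff3 at 0.50 (SE 0.37) and Zg16 at 0.61 (SE 0.43) had higher hydroxy libraries and Fcgbp at -0.60 (SE 0.56) lower ones, 3 of 9 members with libraries apart beside 45.6% of all genes. In the same KO comparison 7 of 7 B and plasma cell markers were above 0, with a median of 1.60 and 5 at an unadjusted p below 0.05, and 1 of 10 enterocyte markers was above 0, with a median of -0.62. In HET, 12 of 12 Paneth markers were above 0, with a median of 1.13. In WT 11 of 12 Paneth markers were above 0, with a median of 0.56, and in KO 10 of 12, with 0.12. No marker of these lists passed limma at an adjusted p of 0.05 in these comparisons, and their part in the goblet values was not tested.

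The effect of the complex was compared between genotypes by an interaction term. Between KO and WT, 0 of 9 members passed beside 0% of all genes, and 0 at an unadjusted p of 0.05 beside 3.79%. Between HET and WT, 0 of 9 passed beside 0%, and 0 at an unadjusted p of 0.05 beside 1.59%. The members' medians were 0.27 and 0.32, each with 7 of 9 above 0, beside -0.04 and -0.09 for all genes. With 1 library left out, the first ran from -0.07 to 0.70 and the second from -0.35 to 0.998.

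**Figure D3:**
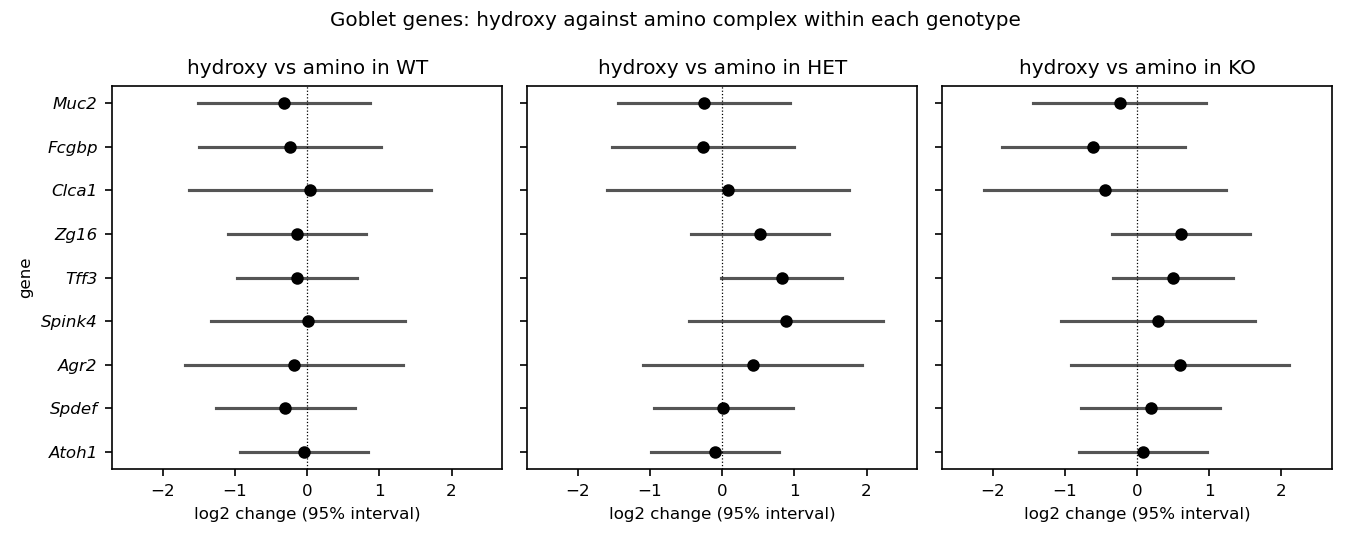
Difference in log2(CPM + 1) between hydroxy and amino complex for each goblet gene, in WT, HET and KO, with limma estimates as points and 95% intervals as bars, from 2 libraries a group. Every interval includes 0, and that of Tff3 in HET runs from -0.01 to 1.66.

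Most members varied in the same direction over the libraries. Over the 36 pairs of members, the Pearson correlation of log2(CPM + 1) over 12 libraries had a median of 0.59 and ran from -0.10 for Tff3 with Fcgbp to 0.97 for Tff3 with Zg16, with 2 pairs below 0. Muc2 correlated with Fcgbp at 0.94, Clca1 with Muc2 at 0.79 and Spdef with Atoh1 at 0.85. Agr2 correlated with Spink4 at 0.81, with Spdef at 0.80, with Muc2 at 0.69 and with Tff3 at 0.47. These are descriptions over libraries that share genotype, depth and tissue make-up.

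Muc2 and Fcgbp, the members with the most exon sequence, moved apart from Tff3 and Zg16 in some libraries. The other short members, Agr2 and Spink4, followed Tff3 and Zg16 less closely than these followed each other. Agr2 correlated with Tff3 and Zg16 at 0.47 and 0.59, and with Muc2 and Fcgbp at 0.69 and 0.51. Spink4 correlated with Tff3 and Zg16 at 0.54 and 0.555, and with Muc2 and Fcgbp at 0.48 and 0.36. Fcgbp, with 7932 bases of merged exon, divided by Zg16, with 1086, was 2.54 and 5.37 in HET amino and 2.10 and 2.18 in HET hydroxy. It was 1.33 and 1.64 in WT amino, 1.23 and 1.54 in WT hydroxy and 1.90 and 2.19 in KO amino, but only 0.93 and 0.83 in KO hydroxy. Muc2 divided by Tff3, with 493 bases, ran from 0.72 in KO hydroxy 1 to 5.53 in HET amino 2. These ratios spanned 6.48-fold and 7.70-fold. The ratios within the pairs Muc2 and Fcgbp, and Tff3 and Zg16, which were chosen because they correlate most, spanned 1.59-fold and 1.43-fold. Agr2 divided by Tff3 spanned 5.28-fold and Spink4 divided by Tff3 4.31-fold, and their ratios to Muc2 and Fcgbp were not computed.

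The libraries themselves differed in length balance, the median log2 deviation of genes of at least 5000 bases minus that of genes under 1000. It was 0.59 and 0.96 in HET amino, 0.39 and 0.03 in HET hydroxy, -0.02 and -0.07 in KO amino and -0.55 and -0.70 in KO hydroxy. In WT it was -0.06 and -0.23 with amino and -0.30 and -0.03 with hydroxy. Among genes called in KO against HET, 477 of the 481 higher and 471 of the 476 lower had a known length. Their median lengths were 1785 bases for the higher and 6947 for the lower, beside 3400.5 for all tested genes. Each library's linear trend on length was then removed, an alternative chosen after seeing the data. KO against HET became 0.00 for Tff3, 0.11 for Zg16, -0.22 for Muc2 and -0.17 for Fcgbp. Spink4, with 397 bases, moved away from 0 in that comparison, from 0.025 to -0.73 (adjusted p = 0.37 by limma). The members' median became -0.08, with 3 of 9 above 0. HET against WT became -0.44 for Tff3 (adjusted p = 0.749 by limma), -0.42 for Zg16, -0.08 for Muc2 and 0.01 for Fcgbp. Hydroxy against amino in KO became -0.12 for Tff3, 0.22 for Zg16, -0.42 for Fcgbp and -0.39 for Spink4.

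**Figure D4:**
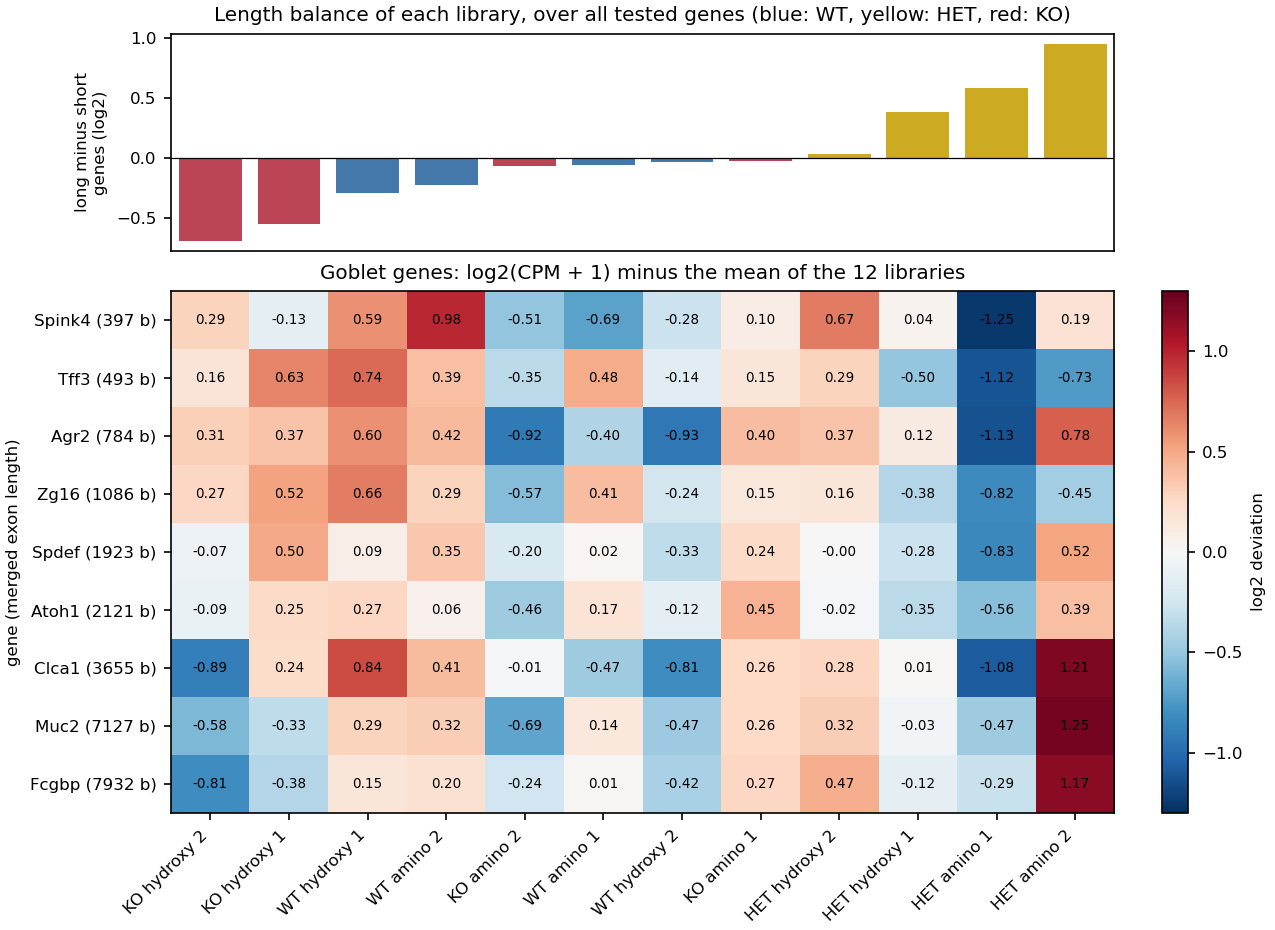
Top, length balance of each library (log2, long genes of at least 5000 bases minus short genes under 1000). Bottom, deviation of each goblet gene in log2(CPM + 1) from its mean over 12 libraries, with genes ordered by merged exon length and libraries by length balance. In HET amino 2, with a balance of 0.96, Muc2 and Fcgbp stand 1.25 and 1.17 above their means and Tff3 and Zg16 0.73 and 0.45 below, but the short Agr2 and Spink4 stand 0.78 and 0.19 above.

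**Figure D5:**
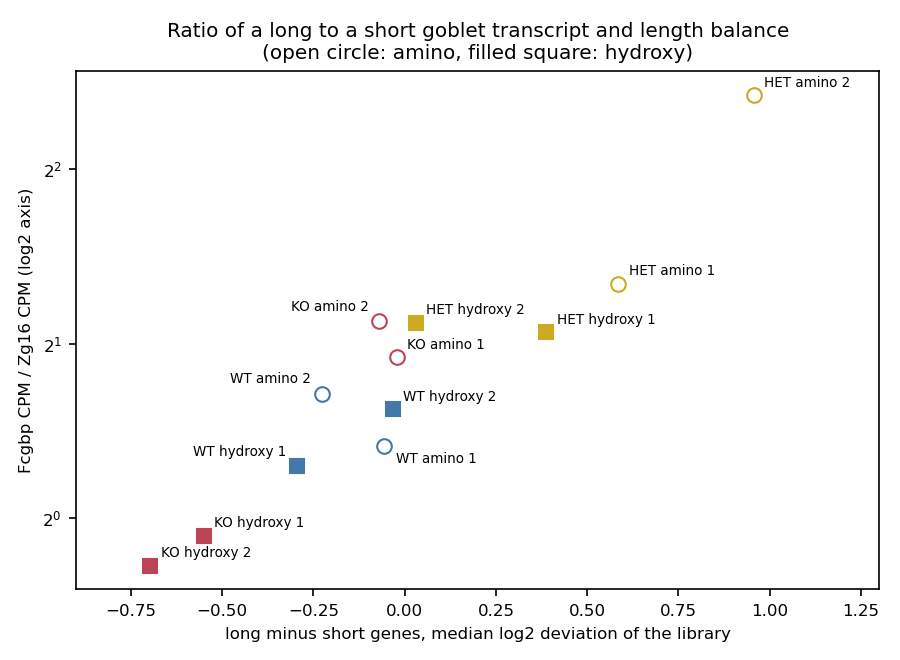
Fcgbp CPM divided by Zg16 CPM (log2 axis) against the length balance of each of the 12 libraries (blue WT, yellow HET, red KO), with open circles for amino and filled squares for hydroxy. The ratio is lowest in KO hydroxy, at 0.83 and 0.93, where the balance is -0.70 and -0.55, and highest in HET amino 2, at 5.37, where it is 0.96.

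The wider goblet programme gave few calls. Of 23 other goblet genes tested, which include Ern2 and Foxa3, 0 passed in any of the 9 comparisons, and 0 of 23 mucin glycosylation genes did. In KO against HET, 1 of 17 genes of mucus release and unfolding passed and 1 of 18 of secretory fate and Notch signalling, beside 6.84% of all genes, so neither list stood apart from the background. The first was Vamp8, a vesicle fusion protein, at 0.80 (SE 0.19, adjusted p = 0.0406 by limma). Vamp8 lay at 30.5 to 83.7 CPM in HET and 82.6 to 102 in KO, which overlap. The second was Notch1, a receptor, at -1.09 (SE 0.28, adjusted p = 0.0492 by limma). It lay at 23.8 to 45.5 CPM in HET and 9.78 to 19.0 in KO, which do not overlap, as for 13.3% of all genes. Neither Vamp8 nor Notch1 passed in KO against WT, at -0.06 and -0.29 (adjusted p = 0.903 and 0.701 by limma). The 957 calls in KO against HET became 10 when only the HET and KO libraries were fitted. They became 326 with the length trend removed. Whether Vamp8 and Notch1 stayed among the calls under those settings was not recorded. Of 18 endoplasmic reticulum folding genes 0 passed in any comparison, with 16 above 0 in KO against WT at a median of 0.24, and 6 above 0 in KO against HET at -0.09. Of 5 type 2 cytokine pathway genes tested, 0 passed. In KO against WT the median was -0.02 for the other goblet genes, with 9 of 23 above 0, and 0.07 for the glycosylation genes, with 13 of 23, beside 0.02 for all genes. In KO against HET the medians were -0.03 for mucus release, with 7 of 17 above 0, and -0.10 for secretory fate, with 8 of 18, beside -0.07 for all genes.

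The genes most like the 9 members over the 12 libraries, by Pearson correlation with the mean of their standardised values, were Slc44a4 (0.95), Misp (0.94), Wwp2 (0.94), Tpd52 (0.92), Tmem238l (0.92), Ccl6 (0.92), Tprn (0.91), Srxn1 (0.91), Mep1b (0.91) and Cast (0.91). Ccl6 is also among the other goblet genes. The members' mean was lowest in HET amino 1 and highest in HET amino 2. These also had the lowest and highest epithelial sums, 4575 and 9250 CPM, and the part of epithelial content in these correlations was not tested.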

How the data were processed

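The authors deposited 1 table of CPM values, with 0.0001 added to every value. Per the submitters' processing notes, Partek, TopHat2 and build mm10 were used, with no versions or roles. Counting tool, annotation and use of strand: not given in the sources used. Groups came from the sample labels, which name no replicate numbers or batches.

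A gene was tested if 2 or more of the 12 libraries reached 1 CPM (14001 of 17112). Values became log2(CPM + 1), a scale that understates changes of low genes. In R 4.3.3, limma 3.58.1 estimated the means of the 6 groups (moderated test with trend, two-sided, 6 residual and 3.61 prior degrees of freedom), with Benjamini-Hochberg adjustment over all tested genes in each of 9 comparisons. Each library came from 1 mouse, and the labels give its age and sex but no litter or batch, so p-values measure the spread between these mice. The model was tested on simulated data.

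The value of 1 read was estimated from the steps of low values. Between 93.9% and 95.2% of the non-zero values below 10 CPM lay within 0.1 of a whole read, which gave 26.0 to 38.8 M reads. The remaining values fell between steps. Because reads were recovered only in part, the count-based fit (voom in limma, on rounded reads) is an added alternative and not the main test. It called 699 genes in KO against HET and 1 in KO against WT.

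Exon lengths are merged coding-transcript exons of GENCODE M21 (GRCm38, the assembly of mm10), and promoters are RefSeq's. Gene coordinates are those of the deposited table, 1-based, with 1 subtracted from each end. The deposited end lay 1 past the RefSeq end for 9434 of 16683 matched genes and equalled it for 683. The members, lists and alternatives were chosen with earlier results of these data known. Named genes were the members, the label checks, the 10 most correlated genes (predicted and Rik names left out), and list genes that passed. Python 3.11.15 with pandas 2.3.3 and matplotlib 3.10.9 made summaries and plots.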

Additional observations from a re-analysis of the deposited data

Results flagged for a closer look

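Within KO, Agr2 in KO amino 2 was at 38.2 CPM, far below the other 3 KO libraries at 90.5, 94.4 and 96.5 CPM. The gap was 0.899 of the group's range, above Dixon's critical value of 0.829 for 4 samples. It was the 1 case among 27 gene and genotype groups examined, and chance gives about 1 in 20. KO amino 2 is 1 of the 2 KO libraries whose Xist and Ddx3y levels go against the labelled sex, and the part of this in the Agr2 value was not tested.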

How the results depend on the processing

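The 9 member changes in 9 comparisons were recomputed under 30 alternative settings, giving 2268 values. Of these 2154 moved by less than the residual SD, 109 moved by more, 5 passed the threshold and 0 reversed a call, while 222 uncalled values changed sign. The count of members called stayed at 0 in 250 of 252 cases. The exceptions came with the smooth muscle score as a covariate, 2 in HET against WT and 3 in KO against HET, and the cause was not tested. Leaving out each library in turn gave 0 members in every comparison (lowest 0, highest 0). Over all genes, calls in KO against HET ranged from 1, without HET hydroxy 1, to 3784, with the smooth muscle score, and were 326 with the length trend removed. In KO against WT they ranged from 1 to 285 and in HET against WT from 0 to 1265. Tff3 in HET against WT ran from -1.36 to -0.41 (lowest adjusted p = 0.0129 by limma), the ends being within the amino and within the hydroxy complex. Without the HET mice over 300 days old, Muc2 and Fcgbp in KO against HET were -1.12 and -1.11 (adjusted p = 0.0966 and 0.134 by limma). Scaling by epithelial markers moved the median of all genes from 0.08 to 0.20 in HET against WT and from -0.07 to -0.18 in KO against HET. No paired analysis was possible because the labels give no replicate numbers. With 2 libraries a group, differences below about the intervals given were not detectable.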
